A study of Mus musculus with 4 samples.

Results

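Early B-cell factor 1 (Ebf1) and Pax5 are the transcription factors that turn a lymphoid progenitor into a B cell, and 6 further factors act beside them in that step. The set described here holds these 8 genes, Ebf1, Pax5, Foxo1, Pou2f2, Pou2af1, Bach2, Bcl11a and Zfp521, chosen by the gene name printed for each probe on the array. They are read by 14 probes of the 39429 on the array, 8 of its 31660 gene names, and 6 of the 8 genes have 2 probes. In the B lineage, E proteins and the interleukin-7 receptor bring on Ebf1, Ebf1 opens chromatin at B-cell genes and brings on Pax5, and Pax5 then holds the cells to the lineage by raising B-cell genes and lowering those of other lineages. Foxo1 works with Ebf1 at this step and drives the recombinase genes. Pou2f2 and its coactivator Pou2af1 act at octamer sites, Bach2 and Bcl11a favour lymphoid over myeloid fates, and Zfp521 is a zinc-finger protein that binds and inhibits Ebf1.

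The cells were preproB cells, the earliest B-lineage stage by surface sorting, sorted from C57BL/6 bone marrow. The sort kept cells that lacked lineage markers, carried B220 and CD43 on their surface, and had neither BP1 nor CD24. The EnhDel group (n = 2) comprised males of 24 weeks labelled as without the +37 kb Cebpa enhancer. These mice carried loxP sites around both copies of the enhancer together with Mx1-Cre, a recombinase that interferon switches on in blood cells and in other tissues. The control group (n = 2) had the same floxed enhancer and no Cre, and its labels give a female of 26 weeks (replicate 1) and a male of 24 weeks (replicate 2). All 4 samples came from mice given 3 doses of pIpC, an interferon inducer, 5 weeks before the marrow was taken. Cre was present in the EnhDel group alone, so an effect of Cre and an effect of the lost enhancer cannot be told apart. Nothing in the labels says whether a sample was 1 mouse or a pool, so p-values measure the spread between these samples alone.

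Each sample was read on 1 single-colour Agilent array, with all 4 on 1 slide in 1 scan, and between 59.6% and 64.9% of the probes were well above background on an array. Levels are given as the scanner's processed signal. Differences are EnhDel minus control on a log2 scale after each array's 75th percentile was subtracted, with the standard error (SE) of limma's fit. The EnhDel samples differed more from each other (SD of log2 differences over probes 0.599) than the control samples did (0.322). Cebpa, the gene of the deleted enhancer, had signals of 125.1 and 286.7 on the EnhDel arrays, against 1271 and 927.1 on the control arrays, a log2 difference of -2.41 ± 0.44 (SE, n = 2 per group) with an adjusted p of 0.237 in limma. The sex-linked genes went against the labels. Xist, expressed from the inactive X of females, had signals of 5.316 and 597.3 on the EnhDel arrays, against 4.954 and 3.991 on the control arrays, so only EnhDel replicate 2, labelled male, was well above background. The Y-linked gene Ddx3y was well above background on all 4 arrays, control replicate 1 (labelled female) included, with 3624 and 1560 on the EnhDel arrays and 3116 and 3474 on the control arrays. EnhDel replicate 2 thus had both Xist and Y-linked signal, and the lowest Y-linked signal of the arrays. The Y-linked Eif2s3y had 5561 and 2635 on the EnhDel arrays, against 4917 and 6840 on the control arrays. Whether that sample held cells of both sexes was not tested. The factors below are therefore given per array, and the Ebf1 difference also without EnhDel replicate 2 and without control replicate 1. Some genes outside the set are given by their group difference alone.

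Against the labelled cell type, the genes of the sort markers B220 (Ptprc), CD43 (Spn) and CD24 (Cd24a) were well above background on all arrays, and Enpep, which encodes BP1, on none. The sort does not separate preproB cells from plasmacytoid dendritic cells, which carry B220, and all 10 marker genes of that cell type were well above background in both groups. Their summed level, in units of each array's 75th percentile, was 1030 and 941 on the EnhDel arrays and 1033 and 947 on the control arrays. Of the factors described here, Bcl11a is also expressed by plasmacytoid dendritic cells and Foxo1 by many blood cells. In RNA from a sorted population, fewer cells of a type and less RNA per cell cannot be told apart.

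No probe of these factors passed the adjusted threshold of 0.05, and neither did any probe of the array (0% of 24277 tested probes; the lowest adjusted p in limma was 0.0549). At an unadjusted p under 0.05 there were 4 of the 12 tested factor probes, 2 lower and 2 higher in EnhDel cells, against 11.1% of all tested probes (3.9% lower and 7.17% higher). One of the 2 higher probes, the dim one of Bcl11a, passed the filter on low signals only through the EnhDel arrays, so it had to lie higher there. Both EnhDel arrays lay on one side of both control arrays for 8 of the 12 (5 lower and 3 higher), where 44.1% of all tested probes did so (15.7% lower and 28.3% higher). Of the 12, 9 differences were below 0 and 3 above, with a median of -0.07, while all tested probes had a median of 0.07 40.3% of them below 0 and 59.7% above. A difference of at least 2-fold was seen for 1 of the 12, the Ebf1 probe, where 2.86% of all tested probes were at least 2-fold lower. The remaining 2 probes, both of Pax5, were not tested because no group had them above background on both of its arrays.

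**Figure D1:**
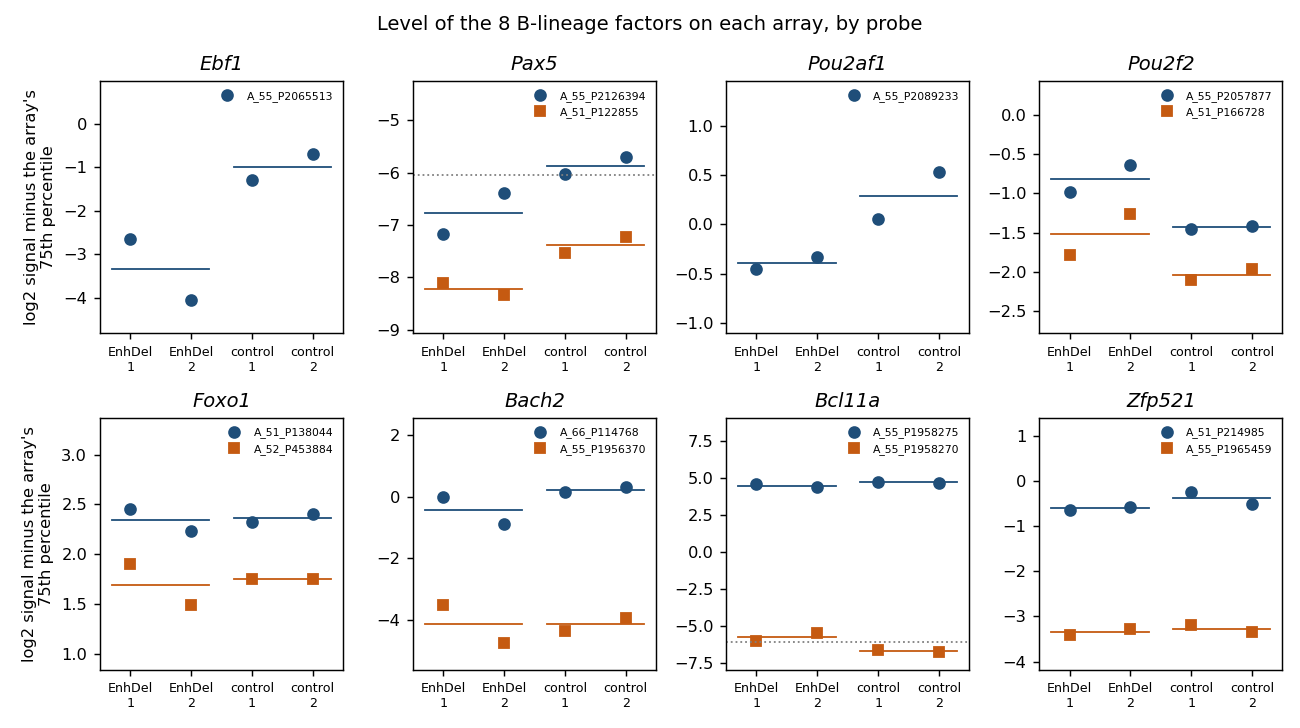
The level of the 8 factors on each array, as log2 signal minus the array's 75th percentile, with 1 marker shape per probe, horizontal lines at the group means, and a dotted line, in the panels it falls into, at the highest of the 4 arrays' lowest levels well above background. Both EnhDel points lie below both control points for Ebf1 and Pou2af1, both probes of Pou2f2 have the EnhDel points above the control points, and the Pax5 points lie around or below the dotted line.

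Ebf1, the pioneer factor that starts the B-cell programme, had the most negative measured difference of the 8 genes. Its signals were 145.6 and 59.51 on the EnhDel arrays, against 391.8 and 658.5 on the control arrays. All 4 were well above background, the EnhDel values lay below both control values, and EnhDel replicate 2 was the lowest. The normalized levels averaged -3.34 ± 0.99 in EnhDel cells and -0.997 ± 0.42 in control cells (SD, n = 2 each, log2 scale). The difference was -2.34 ± 0.53 (SE), which is 5.06-fold lower (95% interval 1.90 to 13.5), and limma's adjusted p was 0.301. Taken singly against the control mean, EnhDel replicate 1 lay 1.64 below it and EnhDel replicate 2 lay 3.04 below it on the log2 scale. Among 19391 tested genes, each represented by its brightest tested probe, Ebf1 was within the lowest 0.444% by difference. Its probe lies at chr11:44818438-44818497 on the plus strand of mm9, and without an mm9 annotation here its place within the gene is not given.

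The size of the Ebf1 difference depended on which arrays were in the fit. Without EnhDel replicate 1 the difference was -3.04, in a fit that takes the lone EnhDel sample to vary as the control samples do. Without EnhDel replicate 2, a sample whose sex label was contradicted, it was -1.64. Without control replicate 1, the other such sample, it was -2.63. Other processing gave other sizes, with -1.15 under normexp on the raw signals with an offset of 50, -1.75 once 6 spots with a distorting local background had been repaired, and -2.00 in the authors' deposited log2 values. Its direction held in all of these.

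Pax5, which Ebf1 brings on and which commits cells to the B lineage, was read by a pair of probes shown here because their signals mark where the array's reach ended. The letters are as the array gives them, 5′ to 3′ in the sense of the transcript, with no part marked.
Pax5 A_51_P122855, chr4:44550354-44582908 of mm9, minus strand: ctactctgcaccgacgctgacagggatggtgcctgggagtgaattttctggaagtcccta
Pax5 A_55_P2126394, chr4:44658421-44658480 of mm9, minus strand: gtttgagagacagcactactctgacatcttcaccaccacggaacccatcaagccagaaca
The first probe's 60 bases span 32555 bases of the genome, so it crosses at least 1 intron. It had signals of 3.273 and 3.031 on the EnhDel arrays, against 5.177 and 7.139 on the control arrays, and was well above background on none. The other probe had 6.297 and 11.6 on the EnhDel arrays, against 14.61 and 20.52 on the control arrays, and only control replicate 2 was well above background. Neither probe was tested, and signals below background have no order. The size of any difference in Pax5 RNA is not measured by these arrays.

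Foxo1, a forkhead factor that acts with Ebf1 and drives the recombinase genes, gave overlapping groups with both probes. The probe at chr3:52150183-52150242 (mm9, plus strand) had signals of 4961 and 4598 on the EnhDel arrays, against 4806 and 5673 on the control arrays. The groups overlapped, with a difference of -0.02 ± 0.17 (SE), a 95% interval of -0.46 to 0.42 and an adjusted p of 0.971 in limma. The second Foxo1 probe had 3373 and 2744 on the EnhDel arrays and 3230 and 3602 on the control arrays, and differed by -0.06 ± 0.20 with overlapping groups. The interval of the first probe leaves out a change of the size measured for Ebf1.

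The octamer pair went opposite ways. Pou2f2 (Oct-2), a POU-domain factor that binds octamer sites, was higher in EnhDel cells by both probes. The probe at chr7:25877735-25877794 (mm9, minus strand) had signals of 458.1 and 626 on the EnhDel arrays, against 350.4 and 402.2 on the control arrays, with no overlap. Its difference was 0.62 ± 0.18 (SE), a 95% interval of 0.13 to 1.11, with an adjusted p of 0.376 in limma. Without EnhDel replicate 1 that difference was 0.79, and without EnhDel replicate 2 it was 0.45. The other Pou2f2 probe had 263.4 and 406.6 on the EnhDel arrays and 223 and 274.1 on the control arrays. These raw signals overlap, the normalized levels do not, and the difference was 0.51 ± 0.23 with an adjusted p of 0.502 in limma. Without EnhDel replicate 1 that difference was 0.77, and without EnhDel replicate 2 it was 0.26. Pou2af1 (OBF-1), the B-cell coactivator that binds the Oct proteins, was lower. Its signals at chr9:51048121-51048180 (mm9) were 662.3 and 777.7 on the EnhDel arrays, against 994.5 and 1549 on the control arrays. The groups did not overlap, and the difference was -0.68 ± 0.22 (SE), 1.60-fold lower with a 95% interval of -1.27 to -0.10 on the log2 scale and an adjusted p of 0.407. The EnhDel replicates lay close together, at -0.74 and -0.62 from the control mean, and the control replicates were further apart.

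Bach2, a repressor that holds back the plasma-cell factor Prdm1 and myeloid genes in B-lineage cells, gave different answers by probe. The probe at chr4:32673009-32673068 (mm9), which starts at base 8418 of its transcript, had signals of 896.2 and 537.1 on the EnhDel arrays, against 1070 and 1338 on the control arrays. The groups did not overlap, and the difference was -0.68 ± 0.32 (SE, 95% interval -1.55 to 0.19, adjusted p = 0.531 in limma). EnhDel replicate 2 lay at -1.10 from the control mean and EnhDel replicate 1 at -0.25. The probe near the transcript's start (base 343) had 79.31 and 36.09 on the EnhDel arrays, against 47.27 and 70.41 on the control arrays. There the groups overlapped, EnhDel replicate 1 was the highest array and EnhDel replicate 2 the lowest, and the SE of 0.46 was larger than the difference. Prdm1, read by its brightest probe, had 88.38 and 143.9 on the EnhDel arrays and 105.6 and 110.5 on the control arrays, and differed by 0.17 ± 0.25 with overlap.

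Bcl11a, a zinc-finger repressor needed for early B cells and for plasmacytoid dendritic cells, was read by a bright probe and a dim one. The probe at chr11:24073114-24073173 (mm9) had signals of 21441 and 20349 on the EnhDel arrays, against 25170 and 26978 on the control arrays, without overlap. The difference was -0.21 ± 0.16 (SE, 95% interval -0.64 to 0.21, adjusted p = 0.680 in limma). The dim probe at chr11:24074059-24074118, assigned to another transcript model, had 14.28 and 21.59 on the EnhDel arrays, against 9.679 and 9.764 on the control arrays. It was well above background on both EnhDel arrays and on neither control array. In the main setting its EnhDel mean lay 1.35-fold above the lowest measurable level of the control arrays. With the repaired normexp its difference was 0.24. The probe entered the fit through the EnhDel arrays alone, so it had to lie higher there, and its p is not given. The direction of Bcl11a as a gene depended on whether this probe was averaged in. The mean of both probes gave 0.38 and the authors' deposited value 0.05, against -0.21 for the bright probe.

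Zfp521, the Ebf1 inhibitor, had signals of 584.6 and 657.1 on the EnhDel arrays, against 817.6 and 754.7 on the control arrays by its brighter probe. The EnhDel values were the lower ones without overlap, at -0.23 ± 0.17 (SE) with an adjusted p of 0.674 in limma. Its second probe had 84.4 and 101 on the EnhDel arrays and 104.7 and 105.3 on the control arrays. Those normalized levels overlapped, at -0.08 ± 0.16. The 95% intervals were -0.69 to 0.23 and -0.51 to 0.35, and the second probe stood at 0.73 with normexp.

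**Figure D2:**
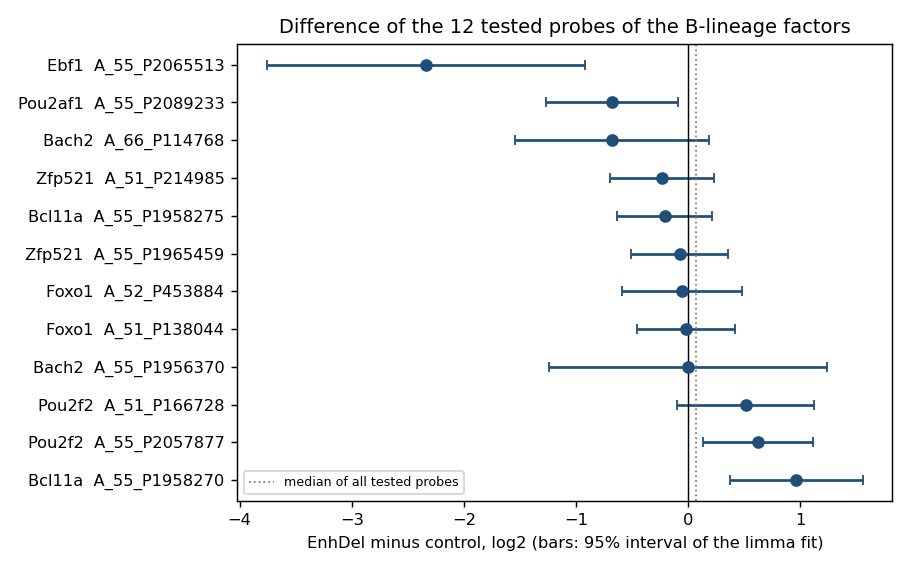
Difference of each of the 12 tested factor probes, EnhDel minus control on the log2 scale, with bars for the 95% interval of limma's fit and a dotted line at the median of all tested probes, 0.07. The Ebf1 probe lies at -2.34, far to the left of the others, which fall between -0.68 and 0.96.

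In the authors' deposited log2 table, which gives 1 value per gene, Ebf1 stood at 7.5 and 6.5 for EnhDel cells and at 8.7 and 9.3 for control cells. Pou2af1 stood at 9.6 and 9.7 in the authors' deposited table for EnhDel cells and at 10.1 and 10.5 for control cells, and Pou2f2 at 8.7 and 9.1 for EnhDel cells and at 8.4 and 8.5 for control cells. For these 3 genes the groups lay in the same order as in the scanner signals. For these 8 genes, each value of the authors' deposited table was within 0.149 of the mean log2 median signal of the gene's probes, while it was up to 4.54 from that of the brightest probe, so for Bcl11a it follows the mean of a bright and a dim probe.

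Genes that Ebf1 and Pax5 are known to activate formed a list of 16, all tested. Of these, 10 were lower and 6 higher (40.2% and 59.8% of tested genes), and 9 were lower and 2 higher without overlap, where 15.5% of tested genes were lower and 28.6% higher without overlap. At an unadjusted p under 0.05 there were 7 lower and 1 higher (4.06% and 7.39% of tested genes), and 0 passed limma's adjusted threshold, as for all 19391 genes (0%). The median of the list was -0.41, against 0.07 for all tested genes, with -0.14 for EnhDel replicate 1 alone and -0.52 for EnhDel replicate 2 alone.

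Igll1, which encodes the lambda5 part of the surrogate light chain, had signals of 365.1 and 75.54 on the EnhDel arrays, against 1370 and 2600 on the control arrays. It differed by -3.40 ± 0.85 (SE) with an adjusted p of 0.326 in limma. The difference was -4.59 without EnhDel replicate 1 and -2.21 without EnhDel replicate 2. The other surrogate light chain genes, added here after their values were seen, followed the same order. Vpreb1 had 4710 and 888.9 on the EnhDel arrays, against 14283 and 23537 on the control arrays (-3.06 ± 0.88). Vpreb3, which encodes a pre-B receptor accessory protein, had 2966 and 453.5 on the EnhDel arrays, against 10279 and 16156 on the control arrays (-3.37 ± 0.97). In these 3 genes and in Ebf1 both EnhDel arrays lay below both control arrays, with EnhDel replicate 2 the lowest.

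The genes of the B-cell receptor chains differed less. Cd79a, the signalling chain of the B-cell receptor and a direct Ebf1 target, had signals of 800.9 and 767.1 on the EnhDel arrays, against 1229 and 1746 on the control arrays (-0.79 ± 0.20, adjusted p = 0.322 in limma). Cr2, the complement receptor gene of mature B cells, went the other way with 187.8 and 247.9 on the EnhDel arrays and 131.1 and 160 on the control arrays (0.68 ± 0.18, adjusted p = 0.338 in limma). Without EnhDel replicate 1 its difference was 0.83, and without EnhDel replicate 2 it was 0.54. Cd79b, the partner chain of Cd79a, stood at -0.15 ± 0.15, and the adaptor gene Blnk at 0.08 ± 0.16. Both were brighter than Cd79a. Cd79b had signals of 12207 and 13087 on the EnhDel arrays and 14490 and 15816 on the control arrays. Blnk had 75125 and 71971 on the EnhDel arrays and 74187 and 75743 on the control arrays. Which cells of the sort gave these signals was not tested.

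**Figure D3:**
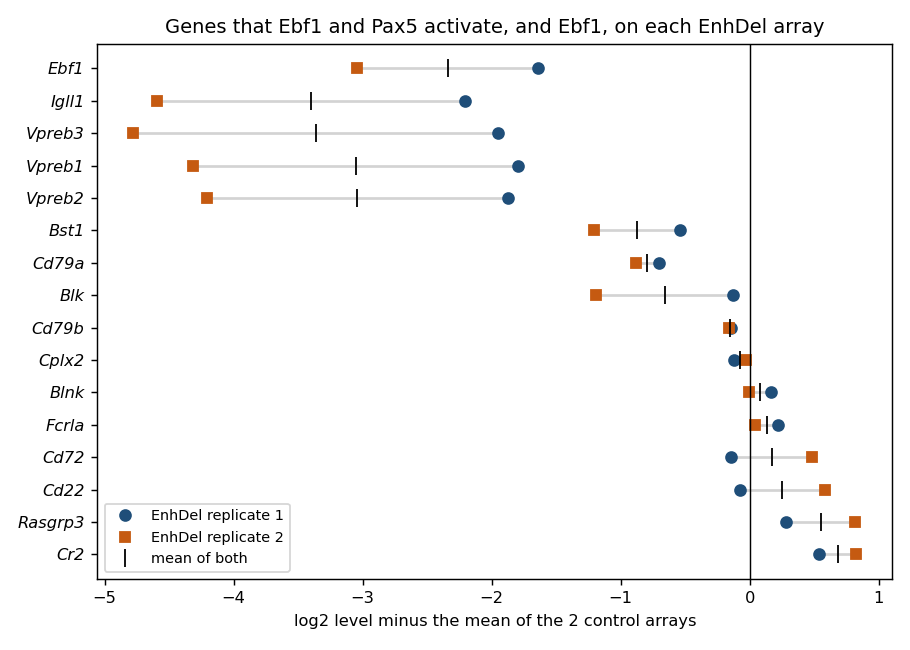
Ebf1 and 15 of the 16 genes that Ebf1 and Pax5 are known to activate, as log2 level minus the mean of the 2 control arrays, with circles for EnhDel replicate 1, squares for EnhDel replicate 2 and a bar at their mean. Ebf1, Igll1 and the Vpreb genes lie furthest to the left, with EnhDel replicate 2 below EnhDel replicate 1 in each, and Cr2 lies furthest to the right at 0.68.

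The stretches before the start sites of Ebf1, Foxo1 and 2 activated targets are printed because these genes either moved together or did not, and because Ebf1 or the Oct proteins are known to act through such motifs. Each is 250 bases of RefSeq sequence on GRCm38.p6, plus strand, ending at the base before the start, and capitals mark motif matches found on either strand. The motifs searched were the Ebf1 palindrome CCCNNGGGA, the Ebf1 site form CNCAAGGGA, the octamer ATTTGCAT, the E-box CAGGTG and the forkhead site GTAAACA.
Ebf1, first start, chr11:44617850-44618099: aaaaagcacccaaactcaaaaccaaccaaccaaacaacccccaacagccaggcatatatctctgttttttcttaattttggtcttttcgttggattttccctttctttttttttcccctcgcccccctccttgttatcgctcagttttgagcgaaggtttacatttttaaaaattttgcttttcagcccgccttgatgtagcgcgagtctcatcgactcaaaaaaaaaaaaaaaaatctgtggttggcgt
Ebf1, second start, chr11:44619978-44620227: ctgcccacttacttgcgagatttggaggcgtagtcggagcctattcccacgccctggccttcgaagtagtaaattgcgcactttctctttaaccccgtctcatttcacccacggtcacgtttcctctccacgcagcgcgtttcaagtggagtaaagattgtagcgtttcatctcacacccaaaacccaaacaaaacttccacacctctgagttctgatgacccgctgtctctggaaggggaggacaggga
Foxo1, chr3:52268087-52268336: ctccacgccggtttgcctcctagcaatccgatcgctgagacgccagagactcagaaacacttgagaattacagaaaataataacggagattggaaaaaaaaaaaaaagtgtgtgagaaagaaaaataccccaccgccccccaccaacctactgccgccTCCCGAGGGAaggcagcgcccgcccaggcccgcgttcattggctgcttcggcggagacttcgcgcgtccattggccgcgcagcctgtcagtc
Cd79a, chr7:24897247-24897496: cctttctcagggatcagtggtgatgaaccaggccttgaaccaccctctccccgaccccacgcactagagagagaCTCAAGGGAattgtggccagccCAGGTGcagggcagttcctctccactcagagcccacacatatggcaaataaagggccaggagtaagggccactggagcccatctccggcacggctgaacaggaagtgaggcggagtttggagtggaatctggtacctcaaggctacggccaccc
Vpreb3, chr10:75948050-75948299: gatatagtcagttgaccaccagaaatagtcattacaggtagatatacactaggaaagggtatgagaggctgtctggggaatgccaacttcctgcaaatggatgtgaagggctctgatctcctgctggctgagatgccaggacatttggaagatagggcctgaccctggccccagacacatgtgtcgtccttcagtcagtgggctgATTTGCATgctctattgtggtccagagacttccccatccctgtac
In Cd79a the Ebf1 site form lies 176 bases before the start and an E-box 154 bases before it. Foxo1 holds overlapping palindrome matches on the 2 strands, at 92 and 91 bases before its start, and Vpreb3 an octamer at 45 bases. Neither Ebf1 stretch holds a match to any of the 5 motifs.

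Over all 32851 such stretches of the table, 5.6% hold the palindrome, 1.02% the Ebf1 site form, 1.6% the octamer, 17.2% the E-box and 3.17% the forkhead site. Of the factors, 7 have a stretch in the table, and 1 of them, Foxo1, holds any of the motifs. Of the 12 activated targets with a stretch, 8 hold the E-box, among them Igll1, Vpreb1 and Cd79a, which were lower in EnhDel cells, Blnk, Fcrla and Cd22, whose groups overlapped, and Cr2, which was higher. The palindrome occurs in 2 of the 12, Cd22 (0.25 ± 0.27) and Cplx2 (-0.07 ± 0.15), the Ebf1 site form in Cd79a, and the octamer in Blnk and Vpreb3. A match is a run of letters in a short window and no evidence that a factor binds there.

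Genes that Ebf1 and Pax5 are known to repress showed no common direction. Of 13 tested, 8 were lower and 5 higher (40.2% and 59.8% of all tested genes), with a median of -0.23. At an unadjusted p under 0.05 there were 4 lower and 2 higher (4.06% and 7.39% of all tested genes). Csf1r, the M-CSF receptor gene that Pax5 represses, had 733.7 and 1647 on the EnhDel arrays, against 3597 and 3757 on the control arrays (-1.63 ± 0.38, adjusted p = 0.308 in limma). Its difference was -0.45 at its smallest over the alternatives. Sdc1, a plasma-cell surface gene, differed by -1.21 ± 0.18 (adjusted p = 0.202), and Cebpa itself belongs to this list. Gata3, a T-lineage factor, had 151.3 and 77.46 on the EnhDel arrays, against 18.68 and 31.95 on the control arrays (2.26 ± 0.44, adjusted p = 0.258), or 0.98 with the repaired normexp. Tcf7, another T-lineage factor, named after its values were seen, had 335.3 and 127.2 on the EnhDel arrays, against 45.58 and 52.98 on the control arrays (2.18 ± 0.53, adjusted p = 0.321). Neither gene's groups overlapped. Without EnhDel replicate 1, the differences were -1.11 for Csf1r, -1.35 for Sdc1, -1.87 for Cebpa and 1.72 for Gata3. Without EnhDel replicate 2, they were -2.16 for Csf1r, -1.07 for Sdc1, -2.95 for Cebpa and 2.80 for Gata3.

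Among 13 genes that act upstream of Ebf1, 8 were lower and 5 higher (40.2% and 59.8% of all tested genes), with a median of -0.15, at 0.0085 on EnhDel replicate 1 and -0.24 on EnhDel replicate 2. At an unadjusted p under 0.05 there were 2, both lower (4.06% of all tested genes), and the number lower was 6 to 12 over the alternatives. Runx1, which helps to open the Ebf1 locus, had 712 and 837.8 on the EnhDel arrays, against 1379 and 1630 on the control arrays (-0.85 ± 0.15, adjusted p = 0.235 in limma). Gfi1, a repressor of myeloid genes in lymphoid progenitors, had 202.5 and 127.8 on the EnhDel arrays, against 360.4 and 392.5 on the control arrays (-1.12 ± 0.30, adjusted p = 0.341). Neither overlapped between the groups, and without EnhDel replicate 1 their differences were -0.79 and -1.51. Without EnhDel replicate 2 these were -0.91 for Runx1 and -0.73 for Gfi1. Il7r, the interleukin-7 receptor, differed by 0.16 ± 0.16, Tcf3, the E2A gene, by -0.18 ± 0.15, Stat5a by -0.11 ± 0.19, and Spi1 (PU.1) by -0.24 ± 0.30. The 95% intervals of Il7r and Tcf3 were -0.26 to 0.58 and -0.58 to 0.22.

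Of 9 genes that Foxo1 drives in lymphocytes, 5 were lower and 4 higher (40.2% and 59.8% of all tested genes). The median of -0.13 turned between arrays, with 0.17 for EnhDel replicate 1 alone and -0.29 for EnhDel replicate 2 alone. The number lower was 2 to 8 over the alternatives. Rag1 had 441.3 and 153.7 on the EnhDel arrays, against 1034 and 1612 on the control arrays (-2.20 ± 0.59, adjusted p = 0.342 in limma). Rag2 had 85.93 and 12.06 on the EnhDel arrays, against 200.5 and 271.8 on the control arrays, and EnhDel replicate 2 was not well above background. Counted among the 5 lower, Rag2 passed the filter on low signals only through the control arrays, where it is high. S1pr1, a receptor for leaving lymphoid tissue, was at 0.57 ± 0.18, and Klf2, a quiescence factor, at 0.27 ± 0.17. Without EnhDel replicate 1, Rag1 differed by -3.02, and without EnhDel replicate 2 by -1.38. Rag2 has no measured level on EnhDel replicate 2, the EnhDel array left without EnhDel replicate 1.

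Of 17 relatives and partners of the factors, 13 were tested, with 5 lower and 8 higher (40.2% and 59.8% of all tested genes) and a median of 0.08. Pax2 and Ebf4, counted among the 8, passed the filter on low signals only through the EnhDel arrays, the group where their means are higher. Over the alternatives the number lower was 1 to 8 and the median -0.13 to 1.05. Of the other Ebf genes, Ebf2 and Ebf3 were well above background on no array. Ebf4 had signals of 14.65 and 25.6 on the EnhDel arrays and 17.36 and 11.72 on the control arrays, with overlap. Bcl11b, the T-lineage relative of Bcl11a, had 58.67 and 44.19 on the EnhDel arrays, against 17.36 and 15.32 on the control arrays (1.75 ± 0.25, adjusted p = 0.192 in limma), or 0.65 with the repaired normexp and 0.45 in the authors' deposited values. Its groups did not overlap, and the difference was 1.49 without EnhDel replicate 1 and 2.01 without EnhDel replicate 2. Pax2, a paralogue of Pax5, had dim signals of 15.32 and 27.4 on the EnhDel arrays and 9.22 and 14.29 on the control arrays, with 1 of the 2 control arrays well above background, so its difference has no measured size. Foxo3 was at -0.28 ± 0.18 and Pax8 at 0.57 ± 0.37.

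Markers of other cells and of cycling moved beside these results. All 10 genes of cycling cells were lower in EnhDel cells, where 40.2% of tested genes were lower. Their median was -1.56, at -0.72 on EnhDel replicate 1 and -2.47 on EnhDel replicate 2. Their summed level, in units of each array's 75th percentile, was 28.7 and 7.16 on the EnhDel arrays, against 34.4 and 50.2 on the control arrays, the same order of arrays as for Ebf1. Neutrophil and monocyte genes were lower in all 8 tested, where 40.2% of tested genes were lower. Their median was -2.61, with a summed level of 1.43 and 11.04 on the EnhDel arrays, against 22.9 and 26.2 on the control arrays. There EnhDel replicate 1 was the lowest, unlike Ebf1. Of the 8, Lyz2 and S100a8 passed the filter on low signals only through the control arrays, where they are high, so their direction adds nothing to the count. Lyz2 was well above background on no EnhDel array, so its difference has no measured size. T cell genes were higher in 6 of 7 tested, where 59.8% of tested genes were higher. Their median was 0.66, with summed levels of 22.4 and 32.9 on the EnhDel arrays and 14.9 and 12.8 on the control arrays. The T-cell receptor chain genes Cd3g and Cd3d differed by 1.06 ± 0.14 and 1.17 ± 0.32 and Cd3e by 0.51 ± 0.19. All lay higher without overlap, as did 28.6% of tested genes, while Themis was well above background on no array. Cd4, whose bright probe enters that sum and which mouse plasmacytoid dendritic cells also express, differed by 1.29 ± 0.32. NK cell genes were higher in 5 of 7 tested, where 59.8% of tested genes were higher, and had a median of 0.52. At an unadjusted p under 0.05, 2 were higher (7.39% of tested genes). Klrb1c, at -0.57, passed the filter on low signals only through the control arrays. Eomes, an NK and T cell factor, had signals of 93.07 and 86.05 on the EnhDel arrays, against 39.07 and 39.17 on the control arrays (1.302 ± 0.17). Over the alternatives the Eomes difference was 0.35 at its smallest. Il2rb, a receptor chain, differed by 1.82 ± 0.49. The NK cell genes' summed level of 17.4 and 14.2 on the EnhDel arrays and 17.5 and 15.2 on the control arrays includes the bright Klrd1 probe, which differed by -0.18 ± 0.21. Genes of later B cells had a median of 0.44, at 0.022 on EnhDel replicate 1 and 0.64 on EnhDel replicate 2. Of 8 tested, 3 were lower and 5 higher, close to the shares over all tested genes. Without overlap, 2 were lower and 4 higher (15.5% and 28.6% of tested genes). At an unadjusted p under 0.05, 1 was lower and 3 were higher (4.06% and 7.39% of tested genes). Among the higher ones, Cd74 differed by 0.69 ± 0.19 and Ms4a1 by 0.62 ± 0.20. Cd24a, whose protein the sort selected against, differed by -0.82 ± 0.47. It lay at -0.17 from the control mean on EnhDel replicate 1 and at -1.48 on EnhDel replicate 2. The part of these cell types, of cycling and of the sort in the Ebf1, Rag1 and surrogate light chain values was not tested.

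**Figure D4:**
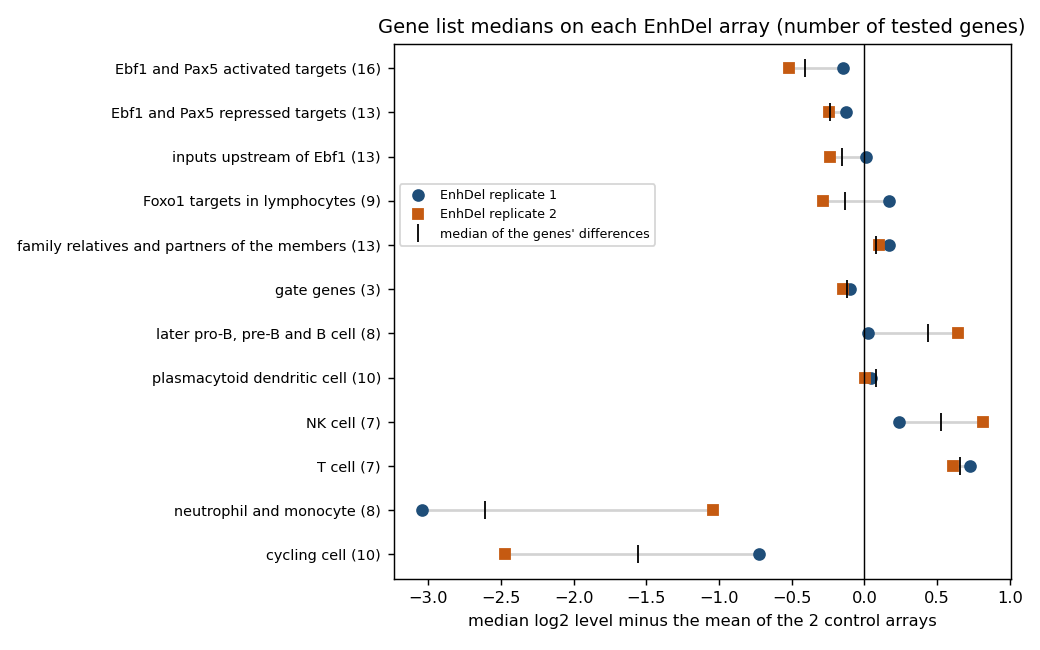
Median of each gene list on each EnhDel array, as log2 level minus the mean of the 2 control arrays, with circles for EnhDel replicate 1, squares for EnhDel replicate 2, a bar at the median of the genes' differences, and the number of tested genes in brackets. The activated targets and the cycling genes are lower on EnhDel replicate 2 than on EnhDel replicate 1, and the neutrophil and monocyte genes are lower on EnhDel replicate 1.

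Over the 4 arrays, the 5 genes whose pattern came closest to that of Ebf1, among 12157 candidates measured on every array and by the Euclidean distance between centred log2 levels, were Rag1 (distance 0.228), Lef1 (0.269), Smtnl2 (0.349), Aunip (0.386) and Scn4b (0.402). Lef1, a factor of early lymphoid cells, had signals of 610.1 and 192.2 on the EnhDel arrays, against 1421 and 2342 on the control arrays. Its order of arrays was that of Ebf1, with a difference of -2.30 ± 0.64 (adjusted p = 0.361 in limma). Over 4 arrays such a likeness is a description.

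For Ebf1, Pou2af1, the brighter Bach2 probe and the brighter Pou2f2 probe, none of the 15 alternative settings turned the direction. The Ebf1 difference was smallest with normexp and largest without EnhDel replicate 1, and that of Pou2af1 moved most when 1 control array was left out.

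**Figure D5:**
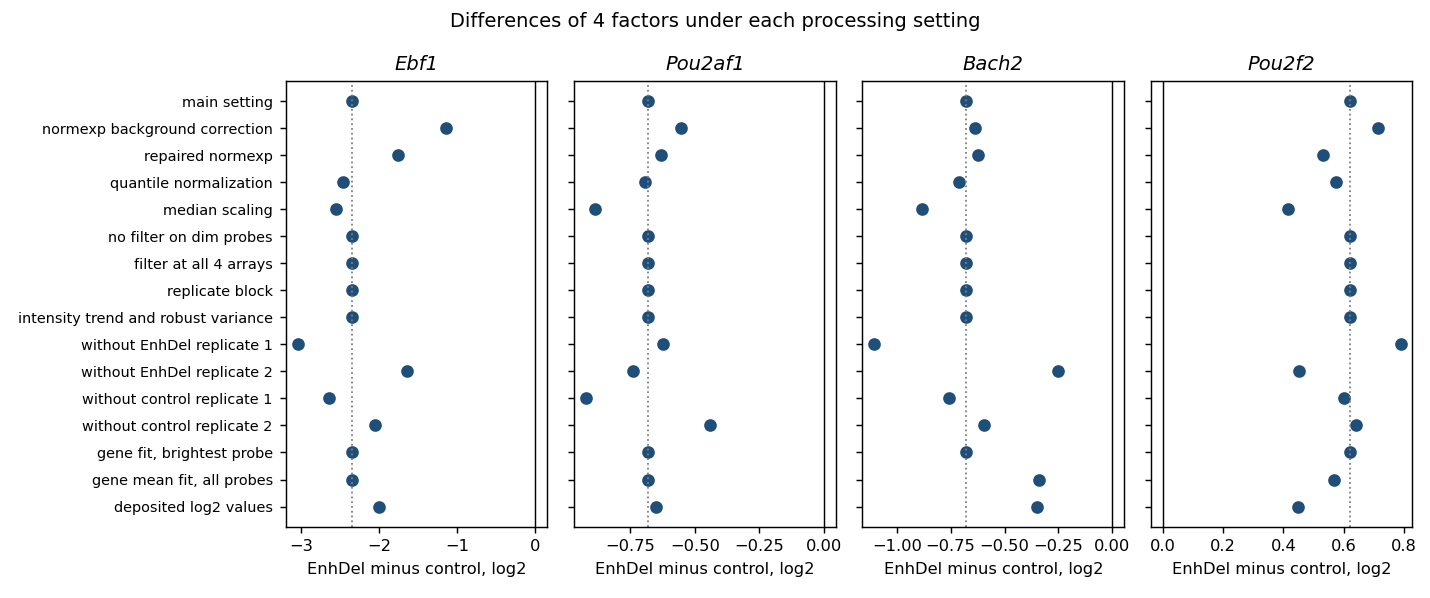
Difference of Ebf1, Pou2af1, Bach2 and Pou2f2, EnhDel minus control on the log2 scale, under the main setting (dotted line) and 15 alternative settings, for the brighter probe unless the setting averages probes. All points of Ebf1, Pou2af1 and Bach2 lie below 0 and all of Pou2f2 above 0, with Ebf1 between -3.04 and -1.15.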

How the data were processed

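RNA of 4 samples was read on 1-colour arrays, and the authors' deposited scanner files hold the intensity of each spot from Feature Extraction 10.7.3.1, per the file headers, with background already subtracted in the processed signal and probe positions on mm9. The authors also deposited a log2 table of 31597 rows with a median of 6.5 in every column. Its normalization method is not given in the sources used here.

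Outlier spots (126 to 162 an array) were dropped, and no spot was saturated. Spots of a probe were averaged, and log2 of the processed intensity was taken minus each array's 75th percentile. Probes entered the fit if some group had both of its arrays well above background and all 4 arrays gave a value (24277 probes; 15 lacked a value). A gene outside the set was read by its brightest tested probe. limma 3.58.1 under R 4.3.3 (lmFit, eBayes) compared EnhDel with control, with Benjamini-Hochberg adjustment over all probes and a threshold of 0.05. The fit was tested on simulated data. The lowest signal well above background was 12.2 to 14.4, and the number of arrays limits the precision. Of the probes, 26581 matched a RefSeq accession of GRCm38.p6, used for names alone. Outside the set, the rule named the 4 genes of each list with the smallest p and the 5 nearest patterns to Ebf1. Some of these are not given singly, and some list genes outside the rule are given beside them. A gene that the rule takes is not reported here. Members and lists were chosen with earlier results of these data known, so their counts are descriptions. Same-numbered replicates did not deviate together (correlation -0.01 between the groups' replicate differences), so the numbers do not pair samples. Alternatives were normexp with an offset of 50, normexp with 6 spots repaired, quantile and median scaling, other filters, fits per gene, the replicate block, an intensity trend, each array left out, and the deposited values.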

Additional observations from a re-analysis of the deposited data

How the results depend on the processing

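The count of probes past the threshold rested on the arrays and the scaling: it was 0 in the main setting, 28 with median scaling, 2 with the mean of a gene's probes, and between 2 and 3491 with 1 array left out (EnhDel replicate 1 left out gave 3491 and EnhDel replicate 2 gave 93, while control replicate 1 left out gave 2 and control replicate 2 gave 7). Without EnhDel replicate 1, 5 factor probes passed (both of Pou2f2, the brighter one of Bach2, Ebf1, and the dim one of Bcl11a, which entered only through the EnhDel arrays). No factor probe passed in any other alternative. Ebf1 differed by -3.04 to -1.64 with 1 array left out and by -3.04 to -1.15 over all 15 alternatives. The replicate number as a block left the Ebf1 difference at -2.34 (adjusted p = 0.408 in limma) and 0 probes past the threshold, with 2483 at an unadjusted p under 0.05 against 2688 without the block, and changed no call. The median of all probes, 0.07, was -0.14 with median scaling and 0.25 with normexp.

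Pou2af1 ranged from -0.92 to -0.44, the brighter probe of Bach2 from -1.10 to -0.25, and the brighter probe of Pou2f2 from 0.42 to 0.79. Signs turned for values near 0 or near background. The dimmer Bach2 probe (-0.00) went to 0.86 with normexp, 0.10 with the repaired normexp, 0.62 without EnhDel replicate 2 and 0.21 without control replicate 2, with -0.63 as its lowest value when 1 array was left out. The dimmer Zfp521 probe went to 0.73 with normexp. Foxo1 went to 0.091 without EnhDel replicate 2 and 0.019 without control replicate 2, and its second probe to 0.15 without EnhDel replicate 2. With 1 array left out the lowest values of these probes were -0.13 and -0.26, and with normexp both stood at -0.28. Bcl11a went to 0.38 with the mean of its probes and to 0.05 in the deposited values. Among other genes, normexp gave -0.024 for Klf2, 0.85 for Aurkb, 0.31 for Foxo3, 0.21 for Lyz2 and -0.12 for Spib. Foxo3 was 0.19 with the mean of its probes, Spib -0.018 with median scaling, and without EnhDel replicate 2 Cbfb was 0.013 and Cox6a2 0.0032, against -0.59 and -0.52 without EnhDel replicate 1. The cause of these changes was not tested. Dim signals limit Pax5 and the dim Bcl11a probe.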
